A study of Mus musculus with 12 samples.

Results

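The genes described here are 45 interferon response genes, a list of mouse gene symbols chosen by name, with earlier results of these data known. Of them, 44 had at least 1 named probe on the array (82 probes in all) and 36 were detected well enough to be tested, out of 8875 genes tested in the whole data set. A probe counts as detected on an array where its detection p-value, which sets its signal against that array's negative controls, is below 0.01. A gene was tested where a probe of it was detected on all 3 arrays of at least 1 group.

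Interferons are secreted proteins released by cells that sense viral nucleic acid or by activated lymphocytes. Type I interferons act through the receptor chains Ifnar1 and Ifnar2, interferon gamma through Ifngr1 and Ifngr2. Janus kinases at these receptors activate transcription factors that bind DNA elements near the induced genes. A complex that holds Stat2 and Irf9 binds the interferon-stimulated response element (ISRE), and interferon gamma acts mainly through the gamma-activated site (GAS). The induced genes encode RNA sensors, antiviral proteins, the immunoproteasome and peptide transporters for MHC class I, and GTPases that act on vacuoles of microbes. In islets, the hormone-secreting clusters of the pancreas, interferon-induced genes are best known from autoimmune diabetes and viral infection.

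RNA came from islets of male C57Bl/6Hsd mice aged 10 months that were wild type (WT) or lacked SHP (SHPKO), a nuclear receptor without a DNA-binding domain that represses other transcription factors and is encoded by Nr0b2. Each genotype ate chow or, from an age of 4 months and for 6 months, a western diet, which gives 4 groups of 3 arrays: WT chow, SHPKO chow, WT western and SHPKO western. Per the series design, equal amounts of RNA of 5 to 9 mice were pooled within a group and run in triplicate. Whether the triplicates share 1 pool is not stated, so the p-values measure only the spread between arrays, which may be technical. The labels name no tissue restriction of the SHP deletion, and no value here belongs to a single mouse. In a preparation of whole islets, fewer cells of a type and less RNA per cell cannot be told apart.

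Many interferon-induced genes carry ISRE or GAS letters near their start, so the promoter windows of 4 members whose levels differed between groups are shown first. RefSeq windows (assembly GRCm38.p6) run from 250 bases before to 50 bases after the annotated start, 300 bases in all, and are written 5′ to 3′ on the gene's strand. In Ifit3, Gbp3 and Rsad2, capitals mark the ISRE core GAAANNGAAA or its reverse complement TTTCNNTTTC, and in Irf8 they mark the GAS core TTCNNNGAA, which reads the same on both strands. The windows lie at chr19:34583279-34583578 (plus strand) for Ifit3, at chr3:142559794-142560093 (plus strand) for Gbp3, at chr12:26456403-26456702 (minus strand) for Rsad2 and at chr8:120736108-120736407 (plus strand) for Irf8.
Ifit3: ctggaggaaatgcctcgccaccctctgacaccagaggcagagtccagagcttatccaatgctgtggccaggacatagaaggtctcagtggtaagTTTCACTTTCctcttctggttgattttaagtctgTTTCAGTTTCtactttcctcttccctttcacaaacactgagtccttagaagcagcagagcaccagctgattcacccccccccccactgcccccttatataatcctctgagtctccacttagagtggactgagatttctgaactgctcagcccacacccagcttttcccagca
Gbp3: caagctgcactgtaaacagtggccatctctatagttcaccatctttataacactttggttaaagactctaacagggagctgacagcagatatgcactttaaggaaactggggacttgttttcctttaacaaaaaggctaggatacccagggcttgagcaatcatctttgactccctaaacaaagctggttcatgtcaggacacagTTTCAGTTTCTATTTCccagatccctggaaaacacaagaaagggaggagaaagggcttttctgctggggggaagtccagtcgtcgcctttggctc
Rsad2: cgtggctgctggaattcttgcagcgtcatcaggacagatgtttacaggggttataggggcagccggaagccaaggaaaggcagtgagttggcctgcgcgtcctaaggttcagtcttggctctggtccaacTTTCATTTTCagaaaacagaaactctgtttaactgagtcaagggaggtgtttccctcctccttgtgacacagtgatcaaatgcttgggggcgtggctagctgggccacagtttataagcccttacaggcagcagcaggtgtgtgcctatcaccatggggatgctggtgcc
Irf8: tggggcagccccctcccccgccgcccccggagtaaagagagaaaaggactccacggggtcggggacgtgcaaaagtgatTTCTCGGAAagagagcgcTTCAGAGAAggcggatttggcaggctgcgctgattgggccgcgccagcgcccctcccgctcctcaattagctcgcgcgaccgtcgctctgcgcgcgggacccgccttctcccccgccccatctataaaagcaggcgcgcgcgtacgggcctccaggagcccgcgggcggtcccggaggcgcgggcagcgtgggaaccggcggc

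The Ifit3 window held 2 separate ISRE cores, which begin 156 and 122 bases before the start. In Gbp3 the 2 cores, 45 and 39 bases before the start, overlap and share bases. Gbp3 and Irf8 each have a further annotated start, and those windows held neither core. Rsad2 held 1 core at 120 bases before the start, and Irf8 held 2 GAS cores at 171 and 153 bases before it. Of the 45 members, 34 were in the promoter table. An ISRE core on either strand stood in a window of 16 of those 34 (47.1%), against 3.99% of the 27025 genes in the table. A GAS core stood in 12 of 34 (35.3%), against 9.55% of all genes. A match describes letters only. Among the other members whose levels are shown in full below, Oasl2 and Irf7 held neither core in their windows, while Oas2 and Ifi27l2a were not in the table.

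The arrays were alike in brightness. Median raw signal ran from 80 to 88 per array, 13821 to 16101 probes were detected, and log2 levels of 2 arrays correlated at 0.989 to 0.995 within a group and at 0.978 to 0.991 between groups. None of the 12 arrays detected Nr0b2 (group means 4.36 to 4.49 on the log2 scale, detection p 0.299 to 0.761), so the deleted gene does not check the genotype labels. The islet label was borne out by 6 of 6 islet markers, among them Ins2 and Gcg, detected on all arrays at a summed linear level of 93800 to 102000. Markers of exocrine acinar cells summed to 57000 to 73600 on the WT arrays and to 14700 to 17000 on the SHPKO arrays. These and the leukocyte markers given below move with genotype or diet, and their part in the results was not tested.

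Levels are given as log2 of the background-corrected and quantile-normalized signal, and differences as log2 with their standard error (SE). A gene is said to have risen or fallen where the adjusted p of the limma fit over all 8875 genes was below 0.05 and the change was at least 1.5-fold. By that rule 8 of the 36 tested members changed in at least 1 of 5 contrasts, namely Oas2, Oasl2, Irf7, Irf8, Ifit3, Ifi27l2a, Rsad2 and Gbp3. Of all genes, 7.01% did so. The main probes of the other 28 tested members passed in no contrast. A second kept probe passed for Dhx58 and Tapbp, as given below. The 4 simple contrasts share arrays with each other, so their counts are not independent.

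**Figure D1:**
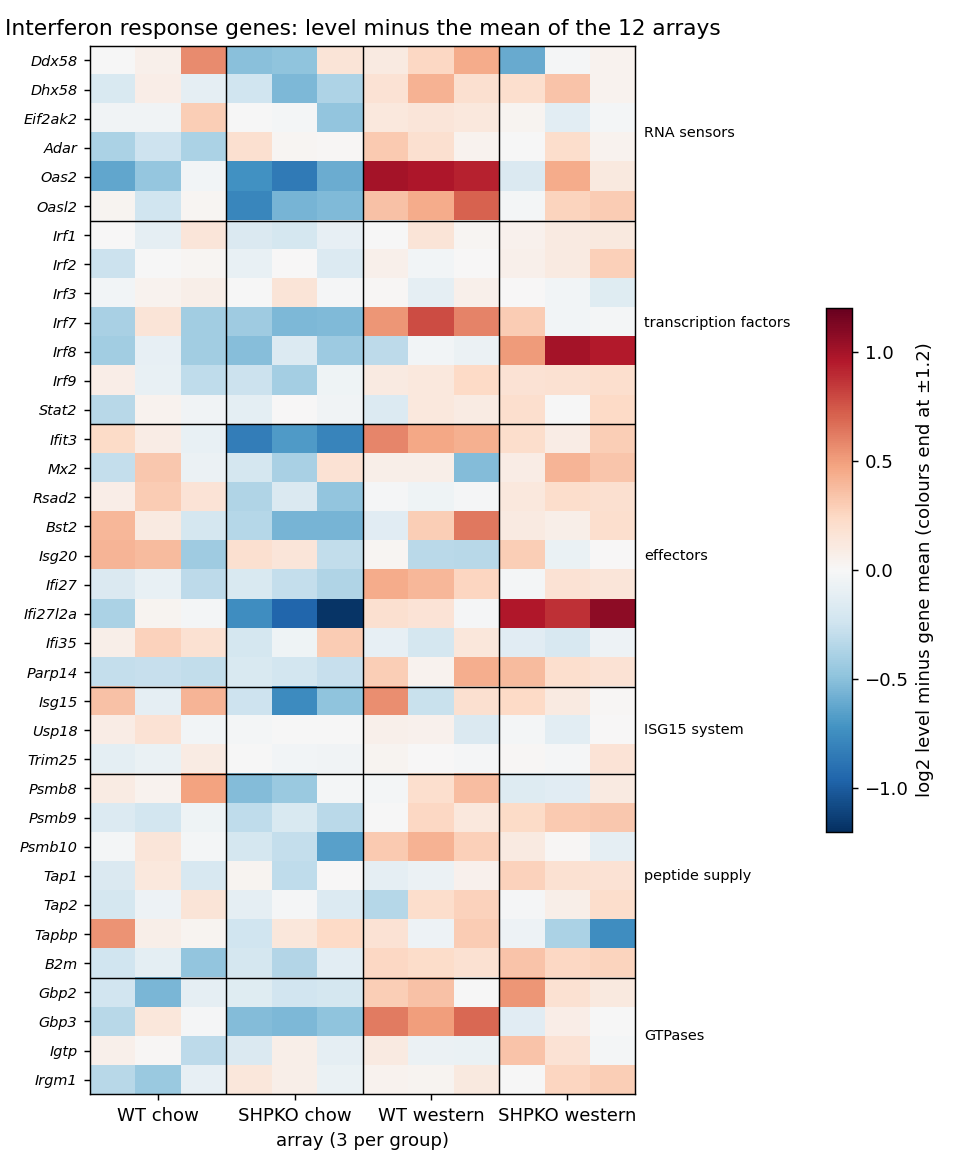
Level of each of the 36 tested members on each of the 12 arrays, as log2 level minus the mean of that gene over all arrays (colour scale from −1.2 to 1.2), with genes in rows by role and arrays in columns by group. The SHPKO chow columns are mostly blue and both western diet blocks mostly red, with the darkest cells in Oas2, Irf8 and Ifi27l2a.

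As a whole the tested members were lowest on SHPKO chow arrays and highest after western diet. After subtracting each gene's mean over the 12 arrays, the median of the 36 members was −0.23 to −0.19 on the 3 SHPKO chow arrays and −0.14 to 0.03 on the WT chow arrays. It was 0.11 to 0.14 on WT western arrays and 0.10 to 0.13 on SHPKO western arrays, so western arrays did not overlap chow arrays in this median, while the 2 western groups overlapped. Over all genes the same median stayed between −0.03 and 0.02. The median of the 36 includes Oas2, Irf7, Ddx58, Irf8 and Mx2, which were tested only through a western group. It was not taken without them.

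Some members entered the test only through a group in which they were high, which by itself makes groups differ. Oas2, Irf7 and Ddx58 passed the detection filter through WT western alone, and Irf8 and Mx2 through SHPKO western alone. Just outside stood Ifit2, whose 2 probes reached detection p-values of 0.0128 and 0.015 at their lowest. The main probe of 28 members was detected on all 12 arrays, and the counts of lowest and highest group means are given for these too. The lowest group mean lay in SHPKO chow for 22 of 36 members (22.9% of all genes) and for 14 of those 28 (50%, against 22.6% of the 7805 genes detected on all arrays). The highest lay in SHPKO western for 15 of 36 and in WT western for 13 of 36, against 32.1% and 22.2% of all genes. Among the 28 these counts were 11 and 10, against 31.4% and 22.6% of the 7805 genes detected on all arrays.

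**Figure D2:**
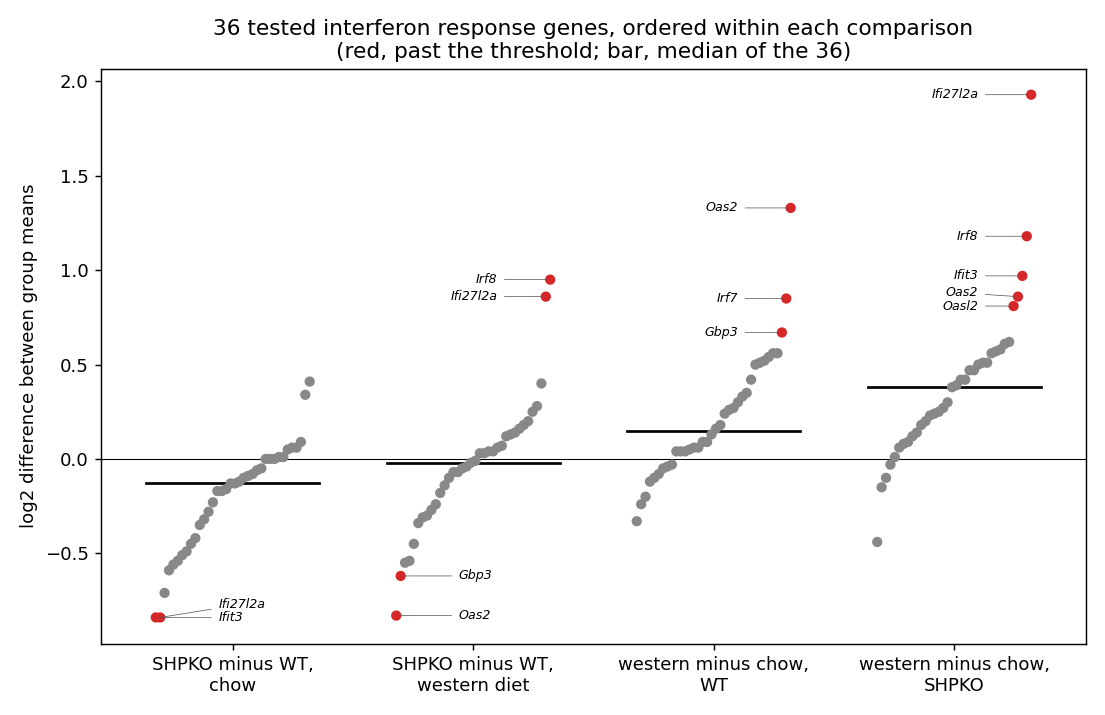
Log2 difference between group means for each of the 36 tested members, ordered within each of 4 contrasts, with members past the threshold in red and the median of the 36 as a bar. The medians are −0.13 and −0.02 for the genotype on chow and western diet, and 0.15 and 0.38 for the diet in WT and SHPKO islets.

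On chow, loss of SHP went with lower levels of 2 members, Ifit3 and Ifi27l2a, and no member rose. That is 2 of 36, against 2.05% of all genes called in either direction and 1.21% called lower. Adjusted p alone was below 0.05 for 4 members, which adds Oasl2 and Rsad2 (2.58% of all genes). The difference was below 0 for 26 of 36 members (48.5% of all genes), with a median of −0.13 against 0.01 over all genes. Among the 28 members detected on all arrays 1 was called, Ifit3 (1.33% of all genes so detected), and the difference was below 0 for 18, with a median of −0.11. The 3 arrays of both groups did not overlap for 11 members that were lower in SHPKO (7.35% of all genes) and for 3 that were higher (9.78%). For the 28 members these counts were 8 and 3, against 521 and 754 of the 7805 genes detected on all arrays.

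On the western diet, the same genotype comparison gave changes in both directions. Irf8 and Ifi27l2a rose in SHPKO and Oas2 and Gbp3 fell, 4 of 36 members (3.06% of all genes called, 1.9% higher and 1.16% lower). The difference was below 0 for 19 of 36 members (46.3% of all genes) and the median was −0.02, against 0.02 over all genes. Groups did not overlap for 10 members lower in SHPKO (10.7% of all genes) and 6 higher (13.7%). For the 28 members detected on all arrays these counts were 7 and 2, against 824 and 1000 of the 7805 genes so detected. Oas2 and Irf8 entered the test only through the group where they are high. Among the 28 members detected on all arrays 1 was called, Gbp3 (1.74% of all genes so detected), with a median of −0.02. Without SHPKO western replicate 1 the count of called members was 2 rather than 4.

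In WT islets the western diet went with higher Oas2, Irf7 and Gbp3, and no member fell. That is 3 of 36, against 2.67% of all genes called and 1.23% called higher. Adjusted p alone was below 0.05 for 9 members, all higher (4.96% of all genes). The difference was above 0 for 27 of 36 (53.8% of all genes), with a median of 0.15 against 0.02 over all genes. Oas2 and Irf7 entered the test only through WT western. Among the 28 detected on all arrays 1 was called, Gbp3 (1.99% of all genes so detected), and the median was 0.15, with 21 above 0. Groups did not overlap for 15 members higher (12.9% of all genes) and 1 lower, Rsad2 (12.2%). For the 28 members these counts were 13 and 1, against 1015 and 945 of the 7805 genes detected on all arrays. Without WT western replicate 3 the count of called members was 5.

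In SHPKO islets the western diet went with higher Oas2, Oasl2, Irf8, Ifit3 and Ifi27l2a, and again no member fell. That is 5 of 36, against 3.19% of all genes called and 2.16% called higher. Irf8 entered the test only through SHPKO western, where it is high, and Oas2 only through WT western. Adjusted p alone was below 0.05 for 12 members, all higher (5.15% of all genes). The difference was above 0 for 32 of 36 (54.2% of all genes), with a median of 0.38 against 0.02 over all genes. Among the 28 detected on all arrays 2 were called, Oasl2 and Ifit3 (1.78% of all genes so detected), and the median was 0.26, with 24 above 0. For 22 members the SHPKO western arrays all lay above the SHPKO chow arrays (15.1% of all genes), and no member showed the reverse. Of the 28 detected on all arrays, 16 did so, against 1100 of the 7805 genes so detected.

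Whether the diet difference depended on genotype was tested by the interaction: how much larger the SHPKO minus WT difference was after western diet than after chow. Irf8, Rsad2 and Ifi27l2a passed, all with positive values, 3 of 36 members (2.04% of all genes called, 1.46% with positive values). The interaction was above 0 for 26 of 36 members (50.5% of all genes), with a median of 0.09 against 0 over all genes. Irf8 entered the test only through SHPKO western, where it is high. Among the 28 detected on all arrays 1 was called, Rsad2 (1.13% of all genes so detected). The count of called members fell to 1 without SHPKO chow replicate 1, without WT western replicate 2 or without SHPKO western replicate 2.

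**Figure D3:**
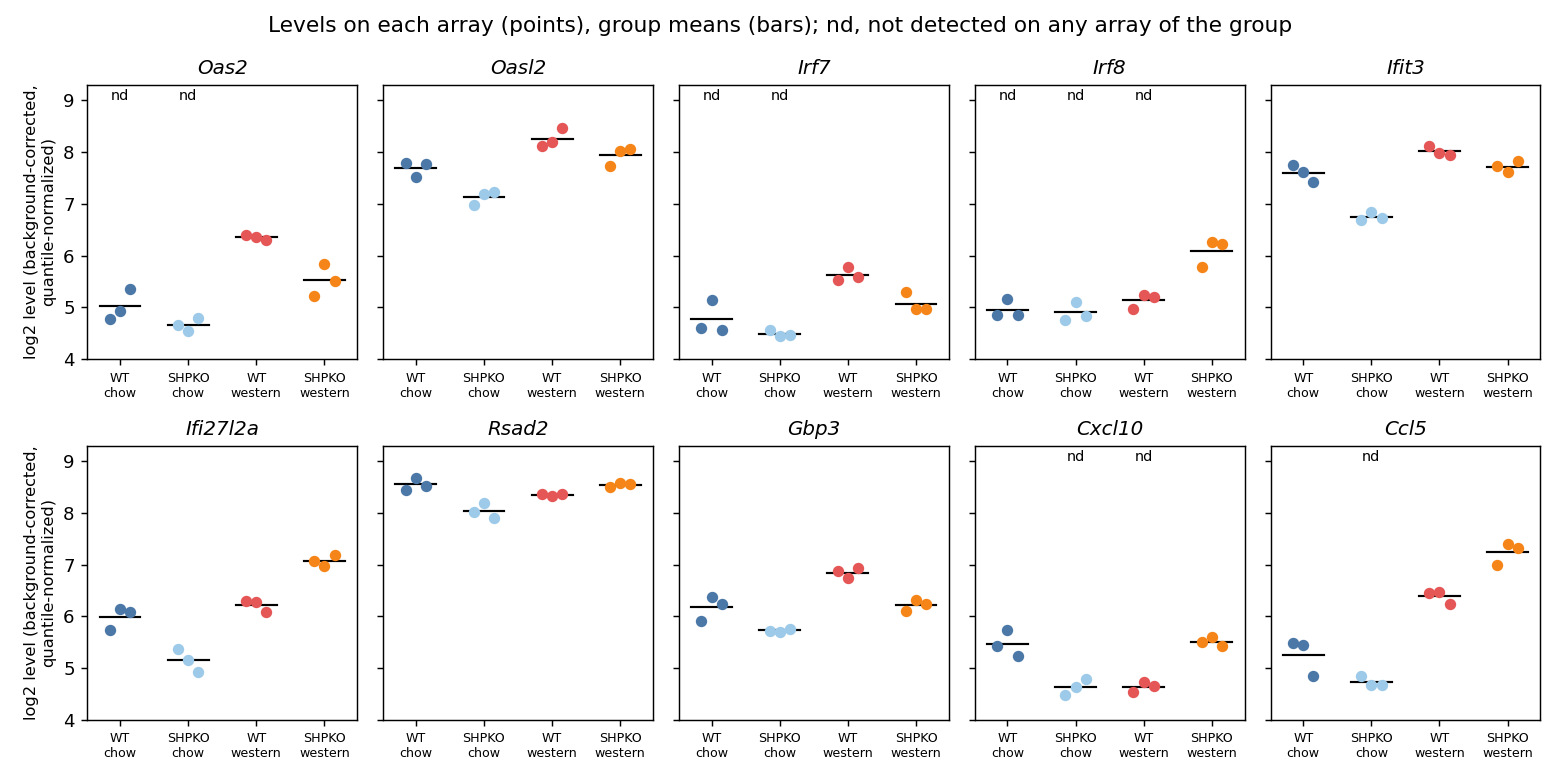
Log2 level on each array (points) and group mean (bar) for the 8 members that changed in at least 1 contrast and for the chemokine genes Cxcl10 and Ccl5, with "nd" above groups in which no array detected the gene. Ifi27l2a is lowest in SHPKO chow (5.15) and highest in SHPKO western (7.08), and Irf8 is detected only in SHPKO western.

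Among the RNA sensors and enzymes that bind double-stranded RNA, 6 of 8 members were tested and the oligoadenylate synthetase family held those that changed. Oas2 makes short oligoadenylates on contact with double-stranded RNA, which activate RNase L. Its level was 6.39, 6.36 and 6.31 on the WT western arrays and 5.22, 5.84 and 5.51 on the SHPKO western arrays. It was 4.77, 4.93 and 5.36 on WT chow and 4.66, 4.54 and 4.80 on SHPKO chow, and no chow array detected it. The 3 WT western arrays stood above all others, and every western array except SHPKO western replicate 1 stood above every chow array.

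Oas2 rose with the western diet by 1.33 (SE 0.17, adjusted p 0.00063) in WT, at least 2.02-fold, and by 0.86 (SE 0.17, adjusted p 0.0096) in SHPKO, at least 1.23-fold. Such "at least" values compare the detected group with the lowest detected signal on each array of the undetected one, because an undetected level is only a bound. On the western diet Oas2 fell by 0.83 in SHPKO against WT (SE 0.17, adjusted p 0.012). That call rests on SHPKO western replicate 1, since without it the difference was −0.68 with an adjusted p of 0.059.

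Oasl2 is a relative of the synthetases that carries ubiquitin-like domains. It read 7.79, 7.52 and 7.78 on WT chow, 6.98, 7.20 and 7.23 on SHPKO chow, 8.11, 8.20 and 8.47 on WT western and 7.74, 8.03 and 8.06 on SHPKO western. SHPKO chow lay below all other arrays. With the western diet Oasl2 rose in SHPKO by 0.81 (SE 0.13, adjusted p 0.0025, 1.75-fold). In WT the diet difference was 0.56 (adjusted p 0.029) and on chow the genotype difference was −0.56 (adjusted p 0.041), both short of 1.5-fold.

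The remaining sensors moved less. Adar, which edits adenosines in double-stranded RNA, had group means of 7.72 in WT chow and 8.14 to 8.24 in the other 3 groups, with a diet difference of 0.52 in WT (adjusted p 0.012). Its other kept probes did not bear this out, at 0.28 (adjusted p 0.28) and −0.13 (adjusted p 0.73). Dhx58, the helicase LGP2, was 0.57 higher on western diet in SHPKO (adjusted p 0.014) and its second kept probe, at 0.59 (adjusted p 0.029, in the fit over all kept probes), passed both thresholds. Ddx58, the viral RNA sensor RIG-I, lay at 4.99 to 5.53 and Eif2ak2, the kinase PKR that halts translation, at 7.84 to 8.13, neither past adjusted p in any contrast. Ifih1, the sensor MDA5, and Oas1a were not detected on any array.

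All 7 transcription factors of the list were tested, and 2 changed. Irf7, which drives the genes of type I interferons, read 5.52, 5.77 and 5.58 on WT western, 5.29, 4.96 and 4.97 on SHPKO western, 4.60, 5.14 and 4.57 on WT chow and 4.56, 4.45 and 4.46 on SHPKO chow. The 3 WT western arrays were the highest of all, and no chow array detected the gene. Irf7 rose in WT with the western diet by 0.85 (SE 0.15, adjusted p 0.0062), at least 1.22-fold. In SHPKO the diet difference was 0.58 (SE 0.15, adjusted p 0.044), and the genotype difference on western diet was −0.55 (SE 0.15, adjusted p 0.061). With 1 of 3 SHPKO western arrays detecting Irf7, the size of both is uncertain.

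Irf8, a factor needed for the development of dendritic cells and monocytes and active in B cells, was detected on the 3 SHPKO western arrays and on no other. There it read 5.78, 6.27 and 6.22, against 4.76 to 5.24 on the other 9 arrays. It rose in SHPKO with the western diet by 1.18 (SE 0.15, adjusted p 0.00037), at least 1.82-fold, and in SHPKO against WT on western diet by 0.95 (SE 0.15, adjusted p 0.0021), at least 1.71-fold. The interaction was 1.00 (SE 0.22, adjusted p 0.031).

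That interaction compares a detected group with 3 undetected ones, and it lost its call in 8 of 12 fits that left out 1 array. These were the fits without WT chow replicate 2, SHPKO chow replicate 1 or 3, WT western replicate 1, 2 or 3, or SHPKO western replicate 2 or 3, with values of 0.90 to 1.06 and adjusted p of 0.052 to 0.093. SHPKO western was also the only group in which any listed lymphocyte marker was detected on all 3 arrays. The 6 tested ones, Cd79b and Cd3d among them, thus passed the detection filter through that group alone, which by itself makes it stand higher. They summed to a linear level of 805 to 844 on SHPKO western arrays, against 145 to 180 on the other arrays.

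The other factors had nearly level group means on their main probes. Irf3, the latent factor that starts interferon production, lay at 10.33 to 10.43, Irf1 at 10.16 to 10.41, Irf2 at 10.09 to 10.33 and Stat2 at 5.97 to 6.22. Another kept probe of Irf1 had group means of 5.63 to 6.17. Its diet differences were −0.35 in WT (adjusted p 0.11) and −0.33 in SHPKO (adjusted p 0.13), in the fit over all kept probes. On the main probe of Irf1 they were 0.04 and 0.25. Irf9, the DNA-binding partner of Stat2, was 7.01 and 7.14 on chow and 7.41 and 7.43 on western diet. Its diet difference was 0.42 in SHPKO (adjusted p 0.059) and 0.26 in WT (adjusted p 0.23).

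Antiviral effectors make up 16 members, of which 9 were tested. Ifit3, a partner of Ifit1 in binding viral RNA, read 7.75, 7.61 and 7.43 on WT chow and 6.69, 6.84 and 6.73 on SHPKO chow. It read 8.11, 7.99 and 7.95 on WT western and 7.73, 7.61 and 7.82 on SHPKO western. The SHPKO chow arrays lay below the other 9, and WT western arrays above them. Ifit3 fell in SHPKO on chow by 0.84 (SE 0.11, adjusted p 0.00037) and rose in SHPKO with the western diet by 0.97 (SE 0.11, adjusted p 7.8e-05, 1.95-fold). Its diet difference in WT was 0.42 (adjusted p 0.040), and the interaction of 0.55 did not pass (SE 0.15, adjusted p 0.10).

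Ifi27l2a, a small mitochondrial protein of the ISG12 family, showed the widest range of group means among the 36 members. It read 5.73, 6.14 and 6.08 on WT chow, 5.36, 5.16 and 4.93 on SHPKO chow, 6.30, 6.27 and 6.09 on WT western and 7.07, 6.98 and 7.18 on SHPKO western. SHPKO chow arrays were the lowest and SHPKO western arrays the highest, without overlap with any other group, and 1 of the 3 SHPKO chow arrays detected it. Group means were 5.98 ± 0.22, 5.15 ± 0.22, 6.22 ± 0.11 and 7.08 ± 0.10 (SD, n = 3 arrays) in that order.

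In SHPKO islets Ifi27l2a rose with the western diet by 1.93 (SE 0.14, adjusted p 1.6e-06). With 1 of 3 SHPKO chow arrays detecting it, at a group mean near the lowest detected signal, the size of that rise and of the chow difference is uncertain. The genotype difference was −0.84 on chow (SE 0.14, adjusted p 0.0036) and 0.86 on western diet (SE 0.14, adjusted p 0.0019), so its sign turned with diet. The interaction was 1.69 (SE 0.19, adjusted p 0.00028) and kept its call in all 12 fits that left out 1 array. In WT the diet difference was 0.24 (adjusted p 0.37).

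Rsad2, or viperin, a radical-SAM enzyme that blocks viral replication, varied less. It read 8.45, 8.67 and 8.53 on WT chow, 8.01, 8.20 and 7.90 on SHPKO chow, 8.36, 8.32 and 8.36 on WT western and 8.5, 8.58 and 8.56 on SHPKO western. SHPKO chow arrays were the lowest. The interaction was 0.71 (SE 0.14, adjusted p 0.016), made up of a genotype difference of −0.51 on chow (adjusted p 0.011) and of 0.20 on western diet (adjusted p 0.37). Without SHPKO chow replicate 1, WT western replicate 2 or SHPKO western replicate 2 it was 0.70 each time with adjusted p of 0.050 to 0.051.

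Other effectors gave smaller or noisier differences. Ifi27, a mitochondrial relative of Ifi27l2a, was 0.56 higher on western diet in WT (SE 0.10, adjusted p 0.0069). Parp14, an ADP-ribosyltransferase, was higher on western diet by 0.54 in WT (adjusted p 0.012) and by 0.47 in SHPKO (adjusted p 0.022). Bst2, or tetherin, which holds budding virions at the cell surface, averaged 5.69 in SHPKO chow and 6.28 to 6.44 elsewhere, with adjusted p of 0.15 for the genotype on chow. Isg20, an exonuclease, Ifi35 and Mx2, a dynamin-like GTPase, had group means of 7.96 to 8.28, 7 to 7.31 and 5.08 to 5.49 and passed in no contrast. Ifit1, Ifit2, Mx1, Parp9, Rtp4 and Xaf1 were not detected on any array, at probe levels of 4.22 to 5.40, and Ifi44 has no named probe in the annotation used.

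For the ISG15 system, none of the 3 members passed in any contrast. Isg15, a ubiquitin-like modifier, averaged 5.05 ± 0.25 (SD, n = 3) on SHPKO chow and 5.67 to 5.76 in the other 3 groups. Its genotype difference on chow was −0.71 (SE 0.20, adjusted p 0.11). Only 1 of 3 SHPKO chow arrays and 2 of 3 WT western arrays detected Isg15, so the size of that difference is uncertain. Usp18, which removes ISG15 from proteins and damps the type I receptor, lay at 9.57 to 9.69 on its main probe. A second kept probe had group means of 5.92 to 6.89, with diet differences of −0.54 in WT (adjusted p 0.13) and −0.71 in SHPKO (adjusted p 0.054). Trim25, the ubiquitin ligase that acts with RIG-I, lay at 9.99 to 10.07. At an unadjusted p below 0.05 there was 1 of 3 in each of the chow genotype, SHPKO diet and interaction contrasts, against 13%, 18.6% and 11.8% of all genes.

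Genes for making and loading MHC class I peptides were all tested, and none of the 7 passed both thresholds on its main probe. B2m, the light chain of MHC class I, had group means of 11.34 in WT chow, 11.39 in SHPKO chow, 11.84 in WT western and 11.90 in SHPKO western. Its diet difference was 0.50 in WT (adjusted p 0.016) and 0.51 in SHPKO (adjusted p 0.011), with all 6 western arrays above all 6 chow arrays. Psmb9, a subunit of the immunoproteasome, was 0.56 higher on western diet in SHPKO (SE 0.09, adjusted p 0.0034) and 0.27 in WT (adjusted p 0.13).

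The other immunoproteasome subunits Psmb8 and Psmb10 were lowest on SHPKO chow, at 7.59 and 8.86, with genotype differences of −0.54 (adjusted p 0.13) and −0.42 (adjusted p 0.11). Tap1 and Tap2, which form the peptide transporter, lay at 5.36 to 5.65 and 9.20 to 9.38. Tapbp, which bridges the transporter and MHC class I, had kept probes that disagreed. Its main probe gave −0.17 for the genotype on chow (adjusted p 0.74), while the other gave −0.69 and passed (adjusted p 0.022, in the fit over all kept probes).

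Of the 4 interferon-inducible GTPases, Gbp3 changed. It read 5.91, 6.38 and 6.23 on WT chow, 5.72, 5.70 and 5.76 on SHPKO chow, 6.87, 6.74 and 6.93 on WT western and 6.11, 6.32 and 6.24 on SHPKO western. WT western arrays were the highest and SHPKO chow arrays the lowest, with no overlap, while WT chow and SHPKO western overlapped. Gbp3 rose in WT with the western diet by 0.67 (SE 0.12, adjusted p 0.0063, 1.59-fold) and fell in SHPKO on western diet by 0.62 (SE 0.12, adjusted p 0.0081).

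Both calls of Gbp3 are close to the 1.5-fold limit. Without WT western replicate 3 the genotype difference was −0.58, without SHPKO western replicate 1 it was −0.56, and without WT chow replicate 1 the diet difference was 0.54. A second kept probe of Gbp3 gave −0.17 (adjusted p 0.62) for the genotype on western diet and 0.51 (adjusted p 0.043) for the diet in WT. Gbp2, a guanylate-binding protein like Gbp3, had diet differences of 0.51 in WT (adjusted p 0.065) and 0.47 in SHPKO (adjusted p 0.089). Igtp lay at 7.68 to 7.93. Irgm1, which acts on pathogen vacuoles and autophagy, lay at 11.29 in WT chow and 11.62 to 11.77 elsewhere on its main probe. A second kept probe of Irgm1 did not bear this out, at 6.84 in WT chow and 6.68 to 6.99 elsewhere.

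Upstream of these genes, the interferons and the type I receptor chains were near or below detection. Of 12 interferon genes listed, 11 had a probe and 1 was tested, Ifna1, at 5.24 to 5.83 over the 12 arrays, with no call in any contrast and none at an unadjusted p below 0.05. Ifnar1 was not detected, and Ifnar2 had group means of 5.32 to 5.60 and was not called. Among 12 tested genes of receptors and JAK-STAT signalling, 1 was called in any contrast, against 7.01% of all genes. This was Ifngr2, the signalling chain of the interferon gamma receptor. It rose in WT with the western diet by 0.98, from 7.60 to 8.58 (SE 0.15, adjusted p 0.0025). Of 8 tested adaptors and kinases of nucleic acid sensing none was called, with 0, 2, 1, 1 and 0 at an unadjusted p below 0.05 in the 5 contrasts, against 13%, 15.2%, 19.5%, 18.6% and 11.8% of all genes.

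A further 46 interferon-stimulated genes outside the list gave 29 tested genes. The counts called were 1 for the genotype on chow, 3 on western diet, 3 for the diet in WT, 5 in SHPKO and 2 for the interaction, against 2.05%, 3.06%, 2.67%, 3.19% and 2.04% of all genes. Ccl5, a chemokine made by T cells and others, rose with the western diet by 1.13 in WT (SE 0.16, adjusted p 0.0018) and by 2.51 in SHPKO (SE 0.16, adjusted p 7.9e-07), at least 4.06-fold. Cxcl10, a chemokine induced by interferon gamma, averaged 5.47 in WT chow and 5.51 in SHPKO western and was not detected in the other 2 groups. Its interaction was called (adjusted p 2e-04), but with 2 undetected groups and the others near the lowest detected signal its size is not given. Cxcl9 rose with the diet in both genotypes, by 0.83 and 1.00 (adjusted p 0.00031 and 2.9e-05), at least 1.46-fold and 1.29-fold.

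Called lower in that list were Cxcl10, for the genotype on chow (at least 1.19-fold, adjusted p 0.0026) and the diet in WT (at least 1.12-fold, adjusted p 0.0033), Ube2l6 and Tor3a. Ube2l6, the ISG15-conjugating enzyme, was at least 1.18-fold lower for the genotype on western diet (adjusted p 0.011), and Tor3a fell with the diet in SHPKO by 1.02 (adjusted p 0.010). Ifitm3, which blocks viral entry, rose with the diet in SHPKO by 0.67 (adjusted p 0.047). Of 8 tested MHC class I genes 1 was called in any contrast, against 7.01% of all genes. This was H2-Q2, which fell with the diet in SHPKO by 0.89 (adjusted p 0.0094).

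Cell type markers moved alongside several of these values. Of the 12 lymphocyte markers, 6 were tested, all 6 through SHPKO western alone, the only group in which all 3 arrays detected them. Ms4a1, Cd3g, Ptprc and Ltb did not pass the detection filter. The 9 tested markers of macrophages and dendritic cells summed to 2470 to 2590 on chow arrays of either genotype, 3130 to 3430 on WT western and 4140 to 4260 on SHPKO western arrays. Single markers differed, since in WT the diet went with higher Csf1r (0.73, adjusted p 0.040) and lower C1qa (−0.61, adjusted p 0.0027), and in SHPKO Cd74 and H2-Aa rose (0.99 and 0.96) while C1qa and Cd14 had differences of −0.33 and −0.52. The part of the markers in the members' differences was not tested.

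Other cell types moved less with the diet or in other ways. Siglech, a marker of plasmacytoid dendritic cells, which make type I interferon, had group means of 5.43 to 5.83 and was not called. Tcf4, the other tested marker of these cells, was not called either, and Ccr9 did not pass the detection filter. Siglech and Tcf4 summed to 988 to 1020 on WT chow and 1120 to 1270 on SHPKO chow arrays. The sum was 1130 to 1160 on WT western and 1260 to 1410 on SHPKO western arrays. The members Irf7 and Bst2, given above, were also listed as markers of these cells. The 4 tested endothelial markers summed to 1520 to 1800 on all arrays, with none called. The 2 tested red cell markers summed to 2350 to 3560 on chow arrays and 655 to 1340 on western arrays. The lower acinar sum of the SHPKO groups stood on both diets, and its part in the members' differences was not tested.

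**Figure D4:**
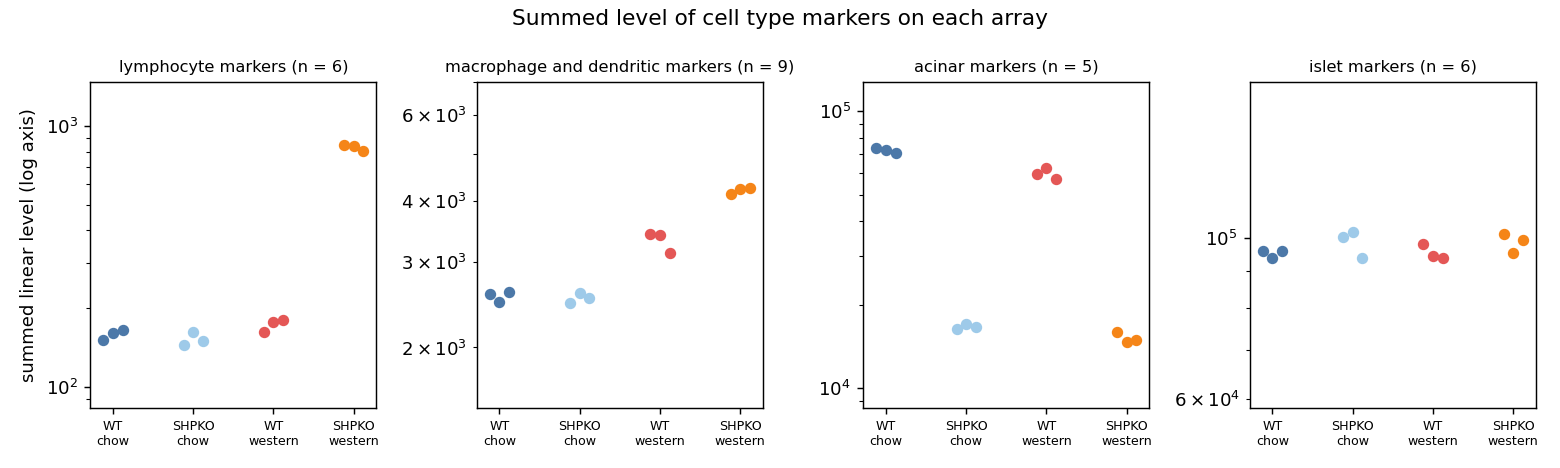
Summed linear level, on a log axis, of the tested markers of lymphocytes (6), macrophages and dendritic cells (9), acinar cells (5) and islet cells (6) on each array, with 1 point per array. Lymphocyte markers, which passed the detection filter through SHPKO western alone, stand at 805 to 844 there against 145 to 180 elsewhere. Islet markers stay between 93800 and 102000.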

How the data were processed

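Islet RNA was labelled with the Illumina TotalPrep kit per the labels and read on 12 beadchip arrays of 45281 probes, 3 per group. The raw table deposited by the authors gives a linear intensity for each probe on each array, with no normalization between arrays. A deposited detection p-value stands beside each one. Both came from BeadStudio, version not stated, per the submitters' processing notes. The other deposited table has intensity values in which, judging by their shared distribution and negative values, the authors had subtracted background and applied quantile normalization. No source used here gives the slides.

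Here neqc of limma 3.58.1, run in R 4.3.3 with an offset of 16, corrected the raw intensities for background, normalized them by quantiles and took log2. The filter, a detection p under 0.01 on every array of 1 group or more, kept 14756 probes. Variances were moderated over these, the brightest kept probe stood for a gene, and the Benjamini-Hochberg adjustment ran over 8875 genes. Of all probes, 34885 carried 1 gene name, 18 several and 10378 none in the annotation used, and only those with 1 name entered. Precision is limited by 3 arrays per group. The code was tested on simulated data.

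The members and all gene lists were chosen with earlier results of these data known. Members past the threshold in any of the 5 contrasts are described on every array, the others by group means or ranges, and genes of other lists by counts with up to 3 called in each direction. The labels give only a replicate number per array, so the main fit did not take the numbers as pairs. Deviations of same-numbered arrays from their group means correlated at −0.03 to 0.54 between groups (18 pairs, 11 above 0.1), which does not settle whether they are paired. Counts with a replicate block are given below. Alternatives covered background correction, offset, the deposited normalized table, the detection filter, probe choice, the replicate block, the fold limit, 2-group fits and leaving out each array.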

Additional observations from a re-analysis of the deposited data

Results flagged for a closer look

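For 3 interferon response genes the genotype difference depended on diet by the interaction test of the limma fit, adjusted over all 8875 genes. The interaction was 1.69 on the log2 scale for Ifi27l2a (adjusted p 0.00028), where the SHPKO arrays were below WT on chow (−0.84) and above WT on western diet (0.86) in 3 of 3 arrays each way. It was 1.00 for Irf8 (adjusted p 0.031), with genotype differences of −0.05 on chow, where no array detected the gene, and 0.95 on western diet. No WT western array detected Irf8 either, so the western diet difference is only bounded, at least 1.71-fold. Irf8 entered the test only through SHPKO western, where it is high, which by itself favours a positive interaction. For Rsad2 it was 0.71 (adjusted p 0.016), from −0.51 on chow to 0.20 on western diet.

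Leaving out 1 array at a time, Ifi27l2a kept its call in 12 of 12 fits, Rsad2 in 9 and Irf8 in 4. Rsad2 lost it without SHPKO chow replicate 1, WT western replicate 2 or SHPKO western replicate 2 (0.70 each, adjusted p 0.050 to 0.051). Irf8 lost it without WT chow replicate 2, SHPKO chow replicate 1 or 3, any WT western array, or SHPKO western replicate 2 or 3 (0.90 to 1.06, adjusted p 0.052 to 0.093). The summed lymphocyte markers were 805 to 844 on SHPKO western arrays and 145 to 180 on the others. They passed the detection filter through SHPKO western alone, and their part in these values was not tested.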

How the results depend on the processing

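All 17 called member differences kept their direction in every setting run, and 6 of them stayed past both thresholds in all of them: Ifit3 for the genotype on chow, Oas2 for the diet in WT, Oasl2, Ifit3 and Ifi27l2a for the diet in SHPKO, and the interaction of Ifi27l2a. Of these, Oas2 entered the test only through WT western, where it is high, and most settings kept the same detection filter. Counts of called members are given here in the order genotype on chow, genotype on western diet, diet in WT, diet in SHPKO and interaction, which were 2, 4, 3, 5 and 3. Without background correction the first 4 counts were 1, 0, 1 and 3, where limma still gave 11, 11, 16 and 21 of 36 members at an unadjusted p below 0.05 (13.7%, 15.9%, 20.6% and 19.5% of all genes). That setting shrinks folds, and over all genes it called 97, 126, 85, 127 and 124 rather than 182, 272, 237, 283 and 181. With an offset of 50 the first 3 counts were 1, 1 and 1, and over all genes 114, 168, 127, 181 and 158. With no minimum fold they were 4 on chow, 9 for the diet in WT and 12 in SHPKO (229, 440 and 457 over all genes), and 405 genes for the genotype on western diet. The deposited normalized table gave 8 for the diet in SHPKO.

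Leaving out 1 array gave 2 to 3, 2 to 4, 2 to 5, 5 to 7 and 1 to 4. With the replicate block the counts were 3, 4, 3, 6 and 3. Same-numbered arrays correlated best in 25 of 36 comparisons of an array with another group, a hint from the data and not the design. Gbp3 for the diet in WT missed the threshold in the fit of only the 2 groups (adjusted p 0.051), and the interaction of Irf8 without the filter on dim probes (adjusted p 0.060). Levels near the lowest detected signal, 5.07 to 5.48 on the log2 scale, limit Oas2, Irf7, Irf8, Ifi27l2a, Isg15 and Cxcl10.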
